A study of Drosophila melanogaster with 8 samples.

Results

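The 8 subunits of the CCT chaperonin, CCT1 to CCT8, were followed in ribosome-bound and in total RNA of Drosophila S2 cells. CCT, also called TRiC, is a barrel of 2 stacked rings in which each ring holds one copy of each of the 8 subunits. The subunits are products of separate genes and are related to one another. ATP binding and hydrolysis close and open the chamber in which newly made proteins fold. Actin and tubulin are its best known substrates, next to WD-repeat proteins such as the activators of the anaphase-promoting complex. Prefoldin hands nascent chains to CCT, and phosducin-like proteins act as its cofactors. In flies CCT is known to be needed for cell growth downstream of insulin and TOR signalling. The members were the probe sets whose single gene symbol is CCT1 to CCT8. Each gene had 1 probe set, so 8 features of 17104 on the array were members, and all 8 were among the 10262 features kept by a filter on brightness.

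S2 is a wild-type cell line from fly embryos that has properties of haemocytes (blood cells). The 4 groups, of 2 arrays each, were ribosome-bound RNA of cells given DENR dsRNA, ribosome-bound RNA of cells given GFP dsRNA, total RNA after DENR dsRNA and total RNA after GFP dsRNA. All cells had thus received double-stranded RNA, and GFP, which flies do not have, served as the control target. Ribosome-bound RNA (labelled "translated") was pooled from the part of a polysome profile that holds single ribosomes (80S) and polysomes. DENR is a factor for re-initiation of translation, and the series compares which transcripts sit on ribosomes with and without it. Each group's 2 arrays are described as biological replicates, with no more said on the cultures, so p-values measure the spread between these samples.

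Signals are log2 values per probe set, from 0.83 to 12.88 over all arrays, with array medians of 2.32 to 2.48. DENR itself read 5.40 and 4.46 in ribosome-bound RNA after DENR dsRNA, against 8.41 and 8.26 after GFP dsRNA (-3.40 ± 0.25, SE, adjusted p = 0.000203, limma). In total RNA it read 7.38 and 7.60 after DENR dsRNA, against 8.28 and 8.18 after GFP dsRNA, and this difference did not pass the test (adjusted p = 0.170, limma). Of 12 haemocyte markers, 11 had a mean above log2 5, as had 0 of 5 neuronal, 0 of 3 muscle, 1 of 4 germline (aub), 0 of 4 fat body and 0 of 2 gut markers. The first array of DENR total RNA lay far from the second, at -9.0 against -27.3 on the first principal component, where the GFP total RNA arrays lay at -29.6 and -35.1 and the ribosome-bound arrays between 22.3 and 29.4. Array signal is relative to all RNA on the array, so that fewer cells carrying a transcript and less of it per cell cannot be told apart.

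All CCT subunits were bright on the arrays. Their means over 8 arrays ran from 8.91 for CCT8 to 11.01 for CCT5, above 95.2% and 99.2% of all features. Probe sets differ in how strongly they bind, so the levels do not rank the subunits against each other. The probe sets of CCT1, CCT2 and CCT3 carry a suffix that the manufacturer gives to sets whose probes can match more than 1 transcript, although the probe table pairs each with 1 gene. The suffix of the CCT5 probe set marks probes shared by several transcripts of 1 gene.

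For most CCT transcripts the order of the groups was the same. GFP total RNA was highest, then DENR total RNA, then GFP ribosome-bound RNA, with DENR ribosome-bound RNA lowest, in CCT1 to CCT6. CCT7 and CCT8 had other orders. In CCT4, CCT5 and CCT6 the arrays of neighbouring groups in this order never overlapped. In CCT1 the 2 middle groups overlapped, in CCT3 the 2 lowest, and in CCT2 only the step between the fractions was free of overlap. The steps of CCT2 within the fractions were only 0.0016 and 0.027 log2 units. How many of all features share this order or this separation was not counted, so neither is shown to be particular to CCT.

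**Figure D1:**
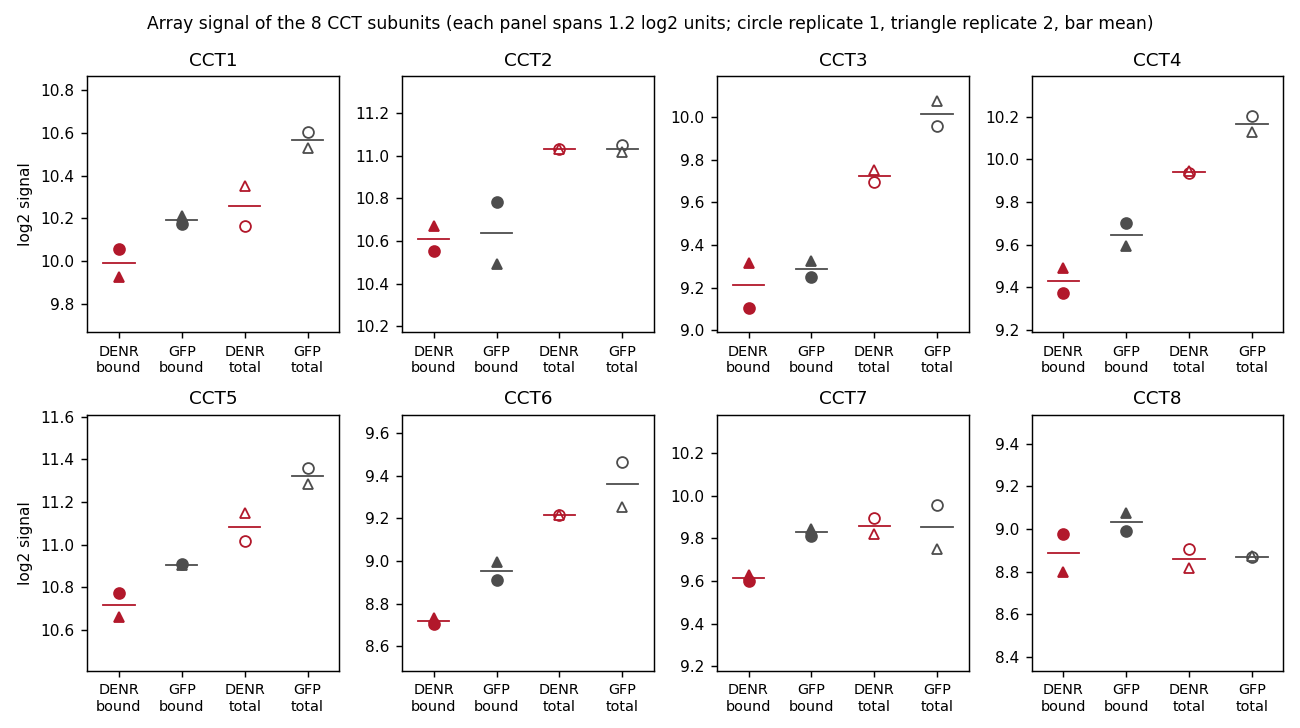
Log2 signal of each CCT subunit on the 8 arrays, in 1 panel per gene, with DENR and GFP ribosome-bound RNA at the left and DENR and GFP total RNA at the right. Points are arrays, bars are group means, and all panels span the same range of log2 units. CCT1 to CCT6 step up from ribosome-bound to total RNA, while CCT8 stays between 8.80 and 9.07.

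CCT3, the gamma subunit, showed the widest range over the arrays, 0.97 log2 units. It read 9.11 and 9.31 in DENR ribosome-bound RNA and 9.25 and 9.32 in GFP ribosome-bound RNA. In total RNA it read 9.69 and 9.75 after DENR dsRNA and 9.96 and 10.07 after GFP dsRNA. Every ribosome-bound array thus lay below every total RNA array.

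CCT4, the delta subunit, read 9.37 and 9.49 in DENR ribosome-bound RNA and 9.70 and 9.59 in GFP ribosome-bound RNA. Its total RNA values were 9.94 and 9.94 after DENR dsRNA and 10.20 and 10.13 after GFP dsRNA. The 2 fractions were separate in both treatments, and in each fraction the DENR arrays were the lower ones.

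CCT5, the epsilon subunit, had the same layout. Its ribosome-bound values were 10.77 and 10.66 after DENR dsRNA, against 10.91 and 10.90 after GFP dsRNA. Its total RNA values were 11.02 and 11.15 after DENR dsRNA, against 11.36 and 11.28 after GFP dsRNA. For CCT6, the zeta subunit, ribosome-bound RNA gave 8.71 and 8.73 after DENR dsRNA, against 8.91 and 9.00 after GFP dsRNA. Its total RNA gave 9.22 and 9.22 after DENR dsRNA, against 9.46 and 9.25 after GFP dsRNA. As with CCT4, none of these groups overlapped.

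CCT1, the alpha subunit, read 10.05 and 9.93 in DENR ribosome-bound RNA, against 10.17 and 10.21 in GFP ribosome-bound RNA. Its total RNA values were 10.16 and 10.35 after DENR dsRNA, against 10.60 and 10.53 after GFP dsRNA. The lower DENR total RNA value, on the array that stood apart, fell below both GFP ribosome-bound arrays. CCT2, the beta subunit, gave 10.55 and 10.67 in DENR ribosome-bound RNA, against 10.78 and 10.49 in GFP ribosome-bound RNA. Its total RNA values, 11.03 and 11.03 after DENR dsRNA and 11.05 and 11.02 after GFP dsRNA, were almost equal between treatments.

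CCT7, the eta subunit, was low in 1 group only. It read 9.60 and 9.63 in DENR ribosome-bound RNA, against 9.81 and 9.84 in GFP ribosome-bound RNA. Its total RNA values were 9.90 and 9.82 after DENR dsRNA, against 9.96 and 9.75 after GFP dsRNA, and both pairs overlapped the GFP ribosome-bound pair. CCT8, the theta subunit, ran over 0.27 log2 units in all. It read 8.97 and 8.80 in DENR ribosome-bound RNA, against 8.99 and 9.07 in GFP ribosome-bound RNA. Its total RNA values were 8.90 and 8.82 after DENR dsRNA, against 8.87 and 8.87 after GFP dsRNA.

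The first comparison asked how ribosome-bound RNA differed from total RNA. The difference was taken in each treatment from its own arrays, while the spread was estimated over all 8 arrays. In DENR dsRNA cells 3 of the 8 subunits fell, CCT3, CCT4 and CCT6, 0 rose and 5 did not pass the test (limma, Benjamini-Hochberg adjusted p under 0.05 over all features), where 15.0% of all features passed, 5.85% falling and 9.13% rising. CCT3 averaged 9.21 ± 0.15 in ribosome-bound RNA and 9.72 ± 0.04 in total RNA (SD, n = 2 each), a difference of -0.51 ± 0.13 (SE, adjusted p = 0.0286 by limma). CCT4 differed by -0.51 ± 0.13 (adjusted p = 0.0239 by limma), and CCT6 by -0.50 ± 0.13 (adjusted p = 0.0300 by limma). Each of the 3 was about 1.4-fold lower on ribosomes, with folds of 1.43, 1.42 and 1.41.

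CCT2 differed by -0.42 ± 0.14 and CCT5 by -0.37 ± 0.13 in DENR dsRNA cells, with adjusted p = 0.0725 and 0.0858 by limma. CCT1 had -0.27 ± 0.13 and CCT7 -0.24 ± 0.13, and the interval of each included 0. CCT8 had 0.03 ± 0.13 (interval -0.26 to 0.32). The arrays of CCT1 to CCT7 were lower on ribosomes without overlap, as for 28.7% of all features, and no subunit was higher without overlap, against 27.1% of features. The median of the 8 was -0.39, against -0.02 for all features.

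These calls depended on each of the 4 arrays compared. Without either DENR total RNA array or either DENR ribosome-bound array, 0 subunits passed, with adjusted p between 0.0596 and 0.212 by limma for the 3 that had. CCT6 also lost its call without either GFP ribosome-bound array (adjusted p = 0.0506, limma), with which the spread is shared. The differences themselves moved less: without single arrays CCT3 ran from -0.62 to -0.41, CCT4 from -0.57 to -0.45 and CCT6 from -0.51 to -0.49. Without the DENR total RNA array that stood apart, the median of the 8 was -0.43.

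In GFP dsRNA cells 4 of the 8 subunits fell on ribosomes, namely CCT3, CCT4, CCT5 and CCT6, 0 rose and 4 did not pass the test (limma). Of all features tested, 29.6% passed in this comparison, with 11.0% falling and 18.7% rising. CCT3 averaged 9.29 ± 0.05 in ribosome-bound RNA and 10.02 ± 0.08 in total RNA (SD, n = 2 each). It was thus 1.66-fold lower on ribosomes, with a log2 difference of -0.73 ± 0.13 (SE) and adjusted p = 0.00287 by limma, and 3.68% of features had a lower difference. CCT4 was 1.43-fold lower (-0.52 ± 0.13, adjusted p = 0.0124 by limma), CCT5 1.33-fold lower (-0.42 ± 0.13, adjusted p = 0.0343 by limma) and CCT6 1.32-fold lower (-0.41 ± 0.13, adjusted p = 0.0415 by limma).

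CCT1 and CCT2 had differences of nearly the same size, -0.38 ± 0.13 and -0.40 ± 0.14, which did not pass (adjusted p = 0.0572 for both by limma). CCT7 differed by -0.03 ± 0.13, with a 95% interval of -0.32 to 0.27. CCT8 had the only positive difference, 0.16 ± 0.13, with an interval of -0.13 to 0.45. The interval of CCT3, the lowest, ran from -1.03 to -0.43. Whether 1 subunit differed from another was not tested. Ribosome-bound arrays lay below total RNA arrays without overlap for 6 subunits and above them for CCT8, as they did for 33.9% and 31.3% of all features. The median difference of the 8 was -0.40, against -0.04 for all features.

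These calls differed in how far they rested on single arrays. CCT3 passed under all 19 alternative settings. CCT4 passed under 17, losing the call without the first GFP total RNA array (adjusted p = 0.0519, limma) and without the second GFP ribosome-bound array (adjusted p = 0.0942, limma). CCT5 and CCT6 passed under 9 each. Both lost the call without the first GFP total RNA array, without either GFP ribosome-bound array and without either DENR ribosome-bound array, and CCT5 also without the second GFP total RNA array (adjusted p of 0.0547 to 0.139 for CCT5 and 0.0681 to 0.176 for CCT6, limma). The count of 4 became 1 without the first GFP total RNA array or the second GFP ribosome-bound array, and 2 without either DENR ribosome-bound array.  With the replicate number as a block it was 2, CCT3 and CCT4. It was 6, with CCT1 and CCT2 added, with quantile normalization inside the fractions, over the brightest 40% of features and with a robust prior that follows intensity.

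**Figure D2:**
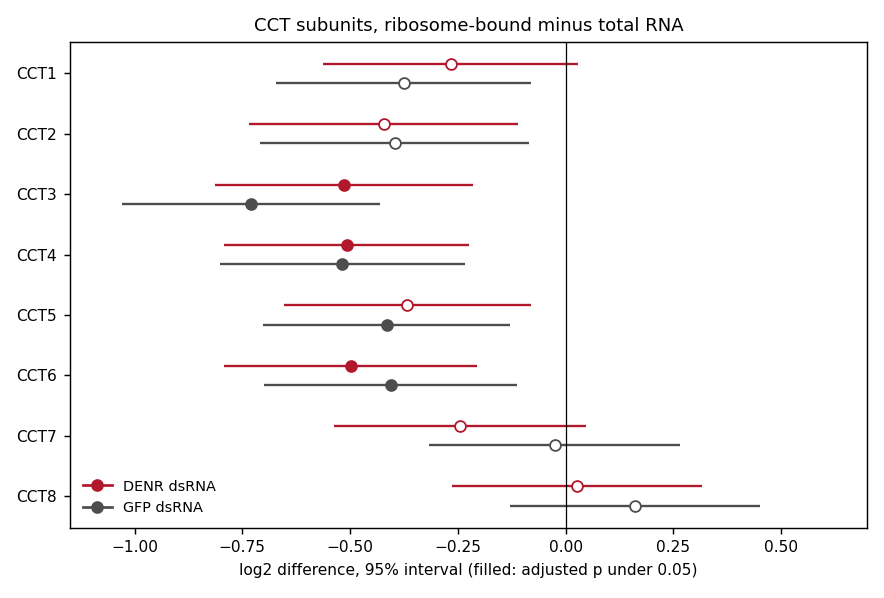
Log2 difference between ribosome-bound and total RNA for each CCT subunit, in DENR dsRNA cells (red, upper) and GFP dsRNA cells (grey, lower), with 95% intervals from the limma fit (n = 2 arrays per group). Filled points passed at an adjusted p under 0.05. CCT3, CCT4 and CCT6 are filled in both treatments and CCT5 in GFP dsRNA cells, while the intervals of CCT7 and CCT8 include 0.

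**Figure D3:**
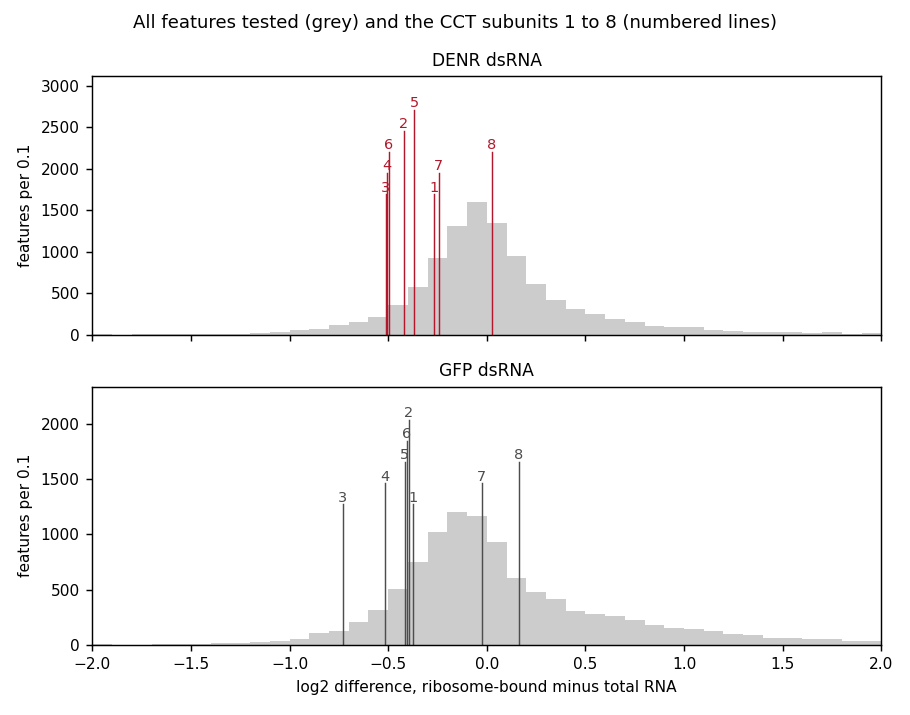
Number of features per 0.1 log2 units of difference between ribosome-bound and total RNA (grey bars), in DENR dsRNA cells above and GFP dsRNA cells below, with a line for each CCT subunit at its difference, labelled by its number. Features beyond 2 log2 units, 36 and 103, are not drawn. CCT1 to CCT6 lie left of the median of all features in both treatments (-0.02 and -0.04), and CCT8 lies right of it.

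Whether ribosome-bound minus total RNA differed between the treatments was tested directly as an interaction. Of the 8 subunits 0 passed (limma), 0 had an unadjusted p under 0.05, and of all features 0% passed while 9.96% had such an unadjusted p. The largest values were -0.22 ± 0.19 for CCT7, where DENR dsRNA cells had -0.24 and GFP dsRNA cells -0.03, and 0.22 ± 0.19 for CCT3, where they had -0.51 and -0.73. The 95% intervals of all 8 lay within -0.63 and 0.64, so that changes within these bounds could not be resolved with 2 arrays per group. DENR itself, the target of the dsRNA, had an interaction of -2.66 ± 0.35 and did not pass either (adjusted p = 0.101 by limma). A lack of calls in this test thus says little. CCT5 passed in GFP dsRNA cells alone, yet its own interaction was 0.05 ± 0.18 (interval -0.36 to 0.45).

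The knockdown was then examined in each fraction. In ribosome-bound RNA all 8 subunits read lower after DENR dsRNA than after GFP dsRNA, by small amounts, except that CCT2 turned positive with cyclic loess, with quantile normalization inside the fractions and without the first GFP (0.12) or first DENR ribosome-bound array (0.03), and CCT3 without the first DENR ribosome-bound array (0.03). By limma 0 of 8 passed the test and 0 had an unadjusted p under 0.05, which 13.2% of all features had. Of all features 1.34% passed, 0.692% falling and 0.653% rising. The differences ran from -0.23 ± 0.13 for CCT6 to -0.03 ± 0.14 for CCT2, with adjusted p from 0.514 to 0.966 by limma. CCT4 had -0.22 ± 0.13, CCT7 -0.21 ± 0.13, CCT1 -0.20 ± 0.13, CCT5 -0.19 ± 0.13, CCT8 -0.15 ± 0.13 and CCT3 -0.08 ± 0.13.

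The ribosome-bound arrays of CCT1, CCT4, CCT5, CCT6, CCT7 and CCT8 were lower after DENR dsRNA without overlap, as for 23.8% of all features, and no subunit was higher without overlap, against 23.3% of features. The median of the 8 was -0.20, against 0.00 for all features. It was -0.11 with quantile normalization within each fraction and -0.15 with cyclic loess, where CCT2 was at 0.02 and 0.03.

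In total RNA 0 of 8 subunits passed as well (limma), while 1.58% of all features passed, 0.702% falling and 0.877% rising. CCT1 had the largest difference, -0.31 ± 0.13, and was the 1 subunit with an unadjusted p under 0.05 (adjusted p = 0.264 by limma), which 17.6% of all features had. CCT3 followed with -0.29 ± 0.13, CCT5 with -0.24 ± 0.13, CCT4 with -0.23 ± 0.13 and CCT6 with -0.14 ± 0.13. For these 5 the DENR arrays lay below the GFP arrays without overlap, as for 21.5% of all features, and no subunit was higher without overlap, against 24.5% of features. CCT2, CCT7 and CCT8 differed by 0.00 ± 0.14, 0.00 ± 0.13 and -0.01 ± 0.13.

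The median of the 8 in total RNA was -0.18, against 0.02 for all features. It was -0.16 without the DENR total RNA array that stood apart, -0.11 without the first GFP total RNA array and -0.24 without the second. The intervals set the limit of these comparisons: they reached down to -0.61 for CCT1 in total RNA and -0.53 for CCT6 in ribosome-bound RNA.

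**Figure D4:**
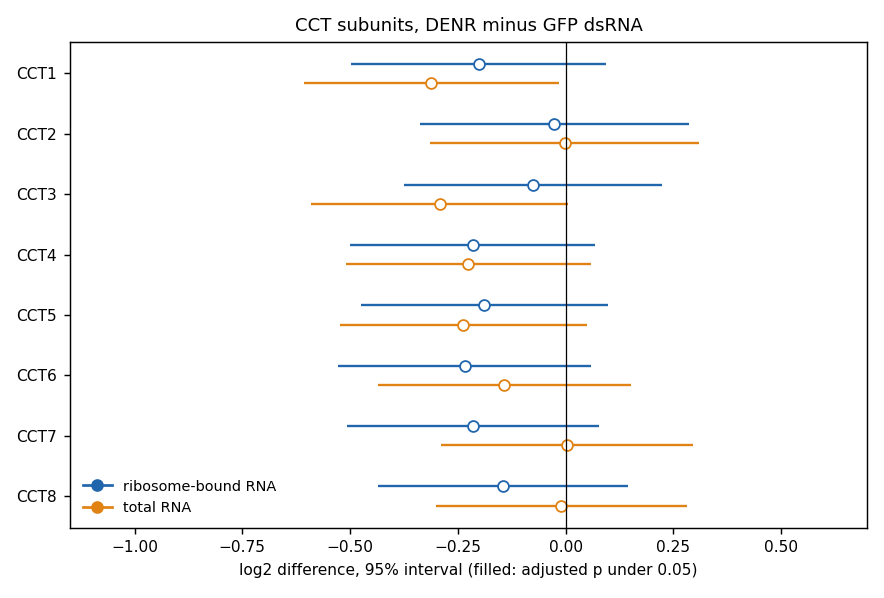
Log2 difference between DENR dsRNA and GFP dsRNA for each CCT subunit, in ribosome-bound RNA (blue, upper) and total RNA (orange, lower), with 95% intervals from the limma fit (n = 2 arrays per group). No point is filled, since 0 of 8 subunits passed in either fraction. All ribosome-bound values lie below 0 as normalized by the authors (CCT2 lies above 0 under the 2 other scalings named, and CCT2 and CCT3 without single arrays), while in total RNA CCT2, CCT7 and CCT8 lie at 0.

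How far the subunits varied together was described by Pearson's correlation over the 8 arrays, which fall into 4 groups and share their normalization. With the mean of the 7 others, CCT4 had r = 0.99, CCT6 0.98, CCT5 0.97, CCT3 0.91, CCT1 0.91, CCT2 0.82 and CCT7 0.72. CCT8 had r = -0.36. Of the 28 pairs of subunits 22 had a correlation above 0, with a median of 0.82 and a range from -0.62 to 0.98. These figures were not computed for pairs of other genes. Over all features kept, the first principal component, which set the fractions apart, held 65.8% of the variance.

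Many other genes followed the mean profile of the 8 subunits. Of 8156 named genes outside the family, 296 (3.63%) had r above 0.9 over the 8 arrays. The 5 with the highest r were flr, whose product helps to disassemble actin filaments (r = 0.995), CG4199 (0.995), CG5346 (0.992), gammaCOP, a subunit of the COPI vesicle coat (0.990), and CG10137 (0.987). Their differences between ribosome-bound and total RNA were -0.96 and -0.90 for flr in DENR and GFP dsRNA cells, -0.74 and -0.81 for CG4199, -1.40 and -1.31 for CG5346, -0.54 and -0.42 for gammaCOP and -0.84 and -0.79 for CG10137.

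Genes that work with CCT were set beside it. The counts for this and the later lists stand against the shares of all features called. Between ribosome-bound and total RNA, 5.85% fell and 9.13% rose in DENR dsRNA cells, and 11.0% fell and 18.7% rose in GFP dsRNA cells. For DENR against GFP dsRNA, 1.58% were called in total and 1.34% in ribosome-bound RNA. Prefoldin had 6 of 6 subunits tested, and they did not move one way. In DENR dsRNA cells Pfdn1 rose on ribosomes (0.73 ± 0.13, adjusted p = 0.00497 by limma) and 5 did not pass, with Pfdn5 at -0.33 ± 0.17. In GFP dsRNA cells Pfdn1 rose (0.67 ± 0.13, adjusted p = 0.00363 by limma), Pfdn5 fell (-0.66 ± 0.17, adjusted p = 0.0164 by limma) and 4 did not pass. The call of Pfdn1 in DENR dsRNA cells ended without the first DENR ribosome-bound array, and that of Pfdn5 without either GFP total RNA array and without the second GFP ribosome-bound array. The list's median was 0.02 in DENR dsRNA cells and -0.02 in GFP dsRNA cells.

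Of 3 phosducin-like genes 0 passed in DENR dsRNA cells by limma, where viaf had -0.40 ± 0.13 and CG4511 0.51 ± 0.19, each with an unadjusted p under 0.05, which 28.1% of all features had. On ribosomes of GFP dsRNA cells viaf fell (-0.71 ± 0.13, adjusted p = 0.00267 by limma), CG4511 rose (0.67 ± 0.19, adjusted p = 0.0209 by limma) and CG7650 did not pass. CG4511 lost its call without the second GFP total RNA or the second GFP ribosome-bound array. Of 5 tubulin folding cofactors 1, Tbcb, fell in DENR dsRNA cells (-0.46 ± 0.13, adjusted p = 0.0386 by limma), and 0 passed in GFP dsRNA cells. The call of Tbcb ended under 10 of 19 alternatives, among them without either DENR total RNA array and without any 1 of the 4 ribosome-bound arrays.

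Among the substrates, 11 of the actin and tubulin genes listed had a probe set with a single gene symbol, and 7 of these passed the brightness filter. In DENR dsRNA cells 2 fell on ribosomes, betaTub97EF (-0.63 ± 0.13, adjusted p = 0.00886 by limma) and betaTub60D (-0.75 ± 0.20), and 5 did not pass. In GFP dsRNA cells 2 fell, betaTub97EF (-0.96 ± 0.13, adjusted p = 0.000505 by limma) and alphaTub85E (-0.54 ± 0.13), and 5 did not pass. alphaTub85E and betaTub60D were dim, with group means of 2.64 to 3.80 in these comparisons. alphaTub85E lost its call without the second GFP total RNA or second GFP ribosome-bound array, betaTub60D without the second DENR total RNA or either DENR ribosome-bound array and with array medians centred, and betaTub97EF in DENR dsRNA cells without the second DENR total RNA or first DENR ribosome-bound array. betaTub56D, a beta-tubulin with group means of 10.97 to 11.34, differed by -0.36 ± 0.14 in DENR dsRNA cells and -0.32 ± 0.14 in GFP dsRNA cells, neither past the test. The list's median was -0.23 in DENR dsRNA cells and -0.29 in GFP dsRNA cells, in both the value of gammaTub37C. This gene, betaTub85D and Act79B were dim too, with group means of 2.19 to 3.77, so the median rests mostly on dim genes. Act5C, Act42A and alphaTub84B were not among the 7 genes kept and so were not analysed here.

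betaTub97EF was also the 1 gene on these lists called for the knockdown. It averaged 7.04 in DENR total RNA and 8.11 in GFP total RNA, a difference of -1.08 ± 0.13 (adjusted p = 0.00313 by limma, kept under all 19 alternatives). On ribosomes it averaged 6.41 after DENR dsRNA and 7.15 after GFP dsRNA (-0.74 ± 0.13, adjusted p = 0.0229 by limma). That call ended without any 1 of the 4 ribosome-bound arrays (adjusted p = 0.135 to 0.223 by limma). The other 6 actins and tubulins did not pass in either fraction.

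Of 4 WD-repeat substrates fzr, an activator of the anaphase-promoting complex, rose on ribosomes in DENR dsRNA cells (1.02 ± 0.27, adjusted p = 0.0303 by limma) and the other 3, among them fzy at -0.23 ± 0.14, did not pass. None of the 4 passed in GFP dsRNA cells, with fzr at 0.74 ± 0.27. The call of fzr ended under 6 of 19 alternatives, among them without the second DENR total RNA array and without either DENR ribosome-bound array, and its level was low, at 3.86 in ribosome-bound and 2.84 in total RNA.

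The chaperonin of mitochondria was compared as the nearest relative in function. Hsp60A, its ring subunit, fell on ribosomes in DENR dsRNA cells, with a mean of 9.93 in ribosome-bound and 10.57 in total RNA (-0.63 ± 0.14, adjusted p = 0.0133 by limma). It fell too in GFP dsRNA cells, with 10.29 in ribosome-bound and 10.87 in total RNA (-0.58 ± 0.14, adjusted p = 0.0106 by limma). CG11267, of the Hsp10 family of lids for that ring, rose in GFP dsRNA cells (0.50 ± 0.13, adjusted p = 0.0138 by limma) and had 0.27 ± 0.13 in DENR dsRNA cells. Of 6 genes of this list on the array 3 were tested. Hsp60B, the third of them, did not pass and was dim, with group means of 2.37 to 2.70. Hsp60A lost its call in DENR dsRNA cells without the second DENR total RNA or either DENR ribosome-bound array and in GFP dsRNA cells without the second GFP ribosome-bound array. CG11267 lost its call without the second GFP total RNA or either GFP ribosome-bound array.

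Among cytosolic Hsp70 chaperones and their partners, all calls were in the other direction. Of 7 tested, 2 rose on ribosomes in DENR dsRNA cells, DnaJ-1, an Hsp40 cochaperone (1.22 ± 0.21, adjusted p = 0.00439 by limma), and STUB1, a ubiquitin ligase that binds Hsp70 (0.94 ± 0.19, adjusted p = 0.00833 by limma). In GFP dsRNA cells 4 rose, DnaJ-1 (1.74 ± 0.21), STUB1 (1.54 ± 0.19), Stip1, which links Hsp70 to Hsp90 (0.66 ± 0.18), and Hsc70-4, the main constitutive Hsp70 (0.52 ± 0.16). By limma 0 of 7 were called lower in either treatment, where 5.85% of all features fell in DENR and 11.0% in GFP dsRNA cells. The median was 0.21 in DENR dsRNA cells and 0.52 in GFP dsRNA cells. Without passing, Droj2 (-0.49 ± 0.16, adjusted p = 0.0684 by limma), Hsc70-1 (-0.40 ± 0.15) and Hsc70-4 (-0.16 ± 0.16) were lower on ribosomes in DENR dsRNA cells. Stip1 (0.21 ± 0.18) and Hsp68 (0.37 ± 0.15) were higher there without passing. Hsc70-1 was dim, at 2.17 in ribosome-bound and 2.56 in total RNA. Calls were lost without either DENR ribosome-bound array for STUB1 in DENR dsRNA cells, without the second GFP total RNA or second GFP ribosome-bound array for Stip1, and without the second GFP total RNA array or any 1 of the 4 ribosome-bound arrays for Hsc70-4, whose call also ended with culture as random block. On these lists apart from betaTub97EF, 0 genes passed for DENR against GFP dsRNA in either fraction by limma. CG7650 came near in ribosome-bound RNA, at 0.78 ± 0.17 (adjusted p = 0.0570 by limma), and had 0.33 ± 0.17 in total RNA.

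**Figure D5:**
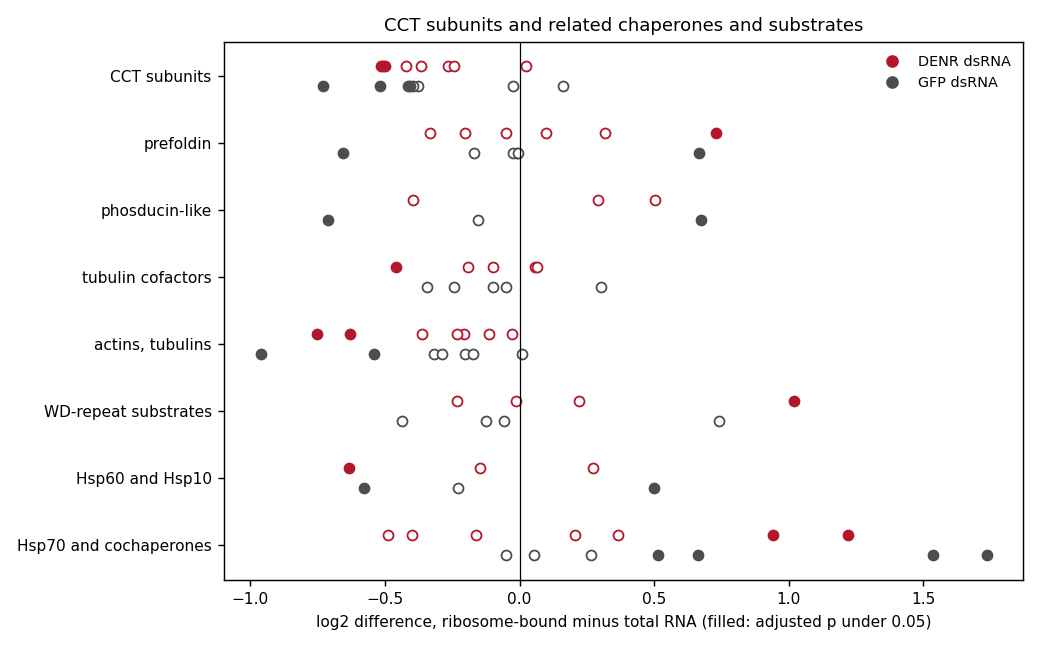
Log2 difference between ribosome-bound and total RNA for the CCT subunits and for each tested gene of the related lists, in DENR dsRNA cells (red, upper) and GFP dsRNA cells (grey, lower). Filled points passed at an adjusted p under 0.05. Called CCT subunits lie left of 0, called Hsp70 partners right of it, and called prefoldin and Hsp60 or Hsp10 genes on both sides in GFP dsRNA cells.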

How the data were processed

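The authors deposited 1 table of log2 signals, which per the submitters' processing notes come from RMA; labelled cRNA was hybridised as the Affymetrix manual describes, per the labels' protocols. RMA corrects background and brings arrays to one distribution, which removes a shift common to most transcripts. Its version was not given in the sources used here, nor whether it was run on all arrays at once. The log base follows from RMA and from the range of the values. Of 18952 probe sets, 183 controls were left out. Of the rest, 13647 had 1 gene symbol, 402 several and 4720 none. Symbols were updated by gene identifier through a RefSeq gene table (Release 6). The brightest probe set of a gene was used, and the brightest 60% of 17104 features were kept, with a mean of at least 2.12.

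One linear model per feature, with 4 group means over all 8 arrays, was fitted with limma 3.58.1 in R 4.3.3, with 4 residual and 5.93 prior degrees of freedom, two-sided p-values and Benjamini-Hochberg adjustment over all 10262 features. A feature was called at an adjusted p under 0.05. Errors beside differences are moderated standard errors, and intervals are 95%. The scripts were tested on simulated data. The number of arrays limits the precision. Members and lists were chosen with earlier results of these data known. Named were all members, DENR, up to 4 called genes of each list and the 5 genes of highest correlation with the members' mean profile. betaTub56D, CG7650, fzy and Hsp60B were named after their values were seen. Alternatives were other scalings (cyclic loess, centring on array medians, or quantile normalization applied to each fraction alone), blocks, filters and priors, all probe sets, a fit on only those 4 arrays that a comparison needs, and leaving out each array in turn. Figures were drawn with matplotlib 3.10.9. Sequences were not used here.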

Additional observations from a re-analysis of the deposited data

How the results depend on the processing

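The number of CCT subunits called for ribosome-bound against total RNA moved with the settings. In DENR dsRNA cells it was 3, and it became 1 (CCT4) with array medians centred, 0 with culture as random block, 0 with only those 4 arrays fitted, 5 with a robust prior that follows intensity, and 0 to 3 when an array was left out. In GFP dsRNA cells it was 4, and it became 2 with array medians centred, with the replicate block, with culture as random block and with only those 4 arrays fitted, 6 with quantile normalization inside the fractions, over the brightest 40% of features and with the robust prior, and 1 to 4 when an array was left out. The replicate block left 2 in DENR dsRNA cells and changed no other count of subunits. The culture block took same-numbered total and ribosome-bound arrays of a treatment as 1 culture, which the labels do not state. Its estimated correlation was -0.26. Deviations of same-numbered arrays correlated at 0.27 and 0.38 within a fraction and at -0.38 to -0.20 in the 4 pairings across fractions. The main fit did not treat the numbers as pairs, and what lies behind this pattern was not tested. A crossed replicate block, chosen after seeing the data, called 5 in DENR and 6 in GFP dsRNA cells. For DENR against GFP dsRNA and for the interaction, 0 subunits were called under every alternative run.

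Uncalled differences near 0 changed sign. With array medians centred, ribosome-bound minus total was 0.070 for CCT7 in GFP dsRNA cells, DENR minus GFP in total RNA was 0.043 for CCT2 and 0.035 for CCT8, and the interaction was -0.045 for CCT4 and -0.0066 for CCT5. With quantile normalization inside the fractions, DENR minus GFP was 0.0042 for CCT2 and 0.0054 for CCT8 in total RNA and 0.024 for CCT2 in ribosome-bound RNA, and the interaction of CCT2 was 0.019. With cyclic loess, DENR minus GFP of CCT2 was 0.063 in total and 0.032 in ribosome-bound RNA. With an array left out, ribosome-bound minus total ran from -0.063 to 0.114 for CCT8 in DENR dsRNA cells and from -0.129 to 0.077 for CCT7 in GFP dsRNA cells. DENR minus GFP in ribosome-bound RNA ran from -0.171 to 0.117 for CCT2 and -0.180 to 0.028 for CCT3, and in total RNA from -0.018 to 0.015 for CCT2, -0.099 to 0.106 for CCT7 and -0.054 to 0.034 for CCT8. The interaction ran from -0.169 to 0.119 for CCT2, -0.048 to 0.067 for CCT4, -0.016 to 0.113 for CCT5 and -0.198 to 0.013 for CCT6.

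The count of all features called ranged from 609 to 2376 (1537 as reported) in DENR dsRNA cells, 1672 to 3928 (3040) in GFP dsRNA cells, 23 to 413 (138) for DENR against GFP in ribosome-bound RNA, 39 to 903 (162) in total RNA and 0 to 6 (0) for the interaction. The cause of these changes was not tested.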
